A study of Mus musculus with 9 samples.

Results

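The genes described here were 9 genes that mark mast cells: the tryptases Tpsb2 and Tpsab1, the carboxypeptidase Cpa3, the chymases Cma1 and Mcpt4, the receptor tyrosine kinase Kit, the IgE receptor subunits Fcer1a and Ms4a2, and the histidine decarboxylase Hdc. They were chosen by name from a list, without a measured value in the rule but with earlier results of these data known. The shares of called genes below are therefore descriptions and not an independent test. All 9 were among the 22609 genes counted. RNA-seq was run on 9 tumors grown from 4T1 cells, a mouse line that serves as a model of triple-negative breast cancer, and the labels give 3 libraries to each of 3 groups. All BALB/c mice were injected with 500000 4T1 cells in the mammary fat pad after 6 weeks on their diet. The LFD group received a diet with 10 kcal% fat, and the HFD group a diet with 60 kcal% fat, and both were given 0.3% hydroxypropyl cellulose as vehicle. The HFD + EC359 group received the 60 kcal% fat diet and EC359, a small-molecule inhibitor of the leukemia inhibitory factor receptor (LIFR), at 5 mg/kg on 5 days per week. No group combined EC359 with the low-fat diet, so a drug effect could be read on the high-fat diet alone. The host was immunocompetent, and RNA came from whole tumor tissue, so that tumor cells and host cells contributed together. In such bulk samples, fewer mast cells and less RNA per mast cell cannot be told apart. The labels number the replicates and do not state that each library came from a separate animal. The p-values therefore measure the spread between these libraries.

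Mast cells are tissue-resident cells of the blood lineage that sit around vessels, in skin and in connective tissue, and are found in many tumors and in adipose tissue. They depend on KIT and its ligand, stem cell factor. Their granules hold tryptases, chymases and carboxypeptidase A3, packed with histamine on heparin, and are released when an antigen crosslinks IgE on the high-affinity receptor FcεRI. Connective tissue mast cells of the mouse carry Tpsb2, Tpsab1, Cpa3, Cma1 and Mcpt4, whereas Mcpt1 and Mcpt2 are known from mucosal mast cells.

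The libraries held 5085268 to 9750959 counts, with the smallest totals in the LFD group. Levels are given as CPM, the count relative to the library total scaled by TMM factors, and a count of 0 allowed up to 3 counts, which was 0.300 to 0.614 CPM for counting error alone. The tumor keratins Krt8 and Krt18 were present in each group, with mean levels of 408 to 599 and 293 to 486 CPM. The LFD libraries differed from the others in base composition. The difference in mean log2 CPM between genes of low and of high exon GC content (lower and upper quartile), taken relative to the mean of the libraries, was -0.54 to -0.32 in LFD, 0.10 to 0.16 in HFD and 0.25 to 0.30 in HFD + EC359. A gene was called when edgeR's quasi-likelihood test, adjusted over all tested genes, gave p under 0.01 with more than a 2-fold change. Over the 13366 genes that passed the filter on low counts, the median log2 fold change was 0.01 in each comparison.

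The granule protease genes were lower in HFD than in LFD tumors and higher in HFD + EC359 than in HFD tumors. The summed level of the 9 genes was 176 to 195 CPM in the LFD libraries, 83.2 to 85.5 CPM in HFD and 229 to 235 CPM in HFD + EC359. In HFD against LFD, 4 of the 9 genes were called, all lower, where 2.68% of all tested genes were called lower and 3.02% higher. In HFD + EC359 against HFD, 6 of the 9 were called, all higher, where 2.08% of tested genes were called higher and 1.38% lower. In HFD + EC359 against LFD, 2 of the 9 were called, both higher, against a background of 3.66% higher and 1.43% lower. These comparisons share libraries, since the HFD group enters the first and the second, so their values are set side by side and are not independent of each other. The libraries did not overlap for 8 of the 9 genes in the first comparison, with HFD below LFD, as for 28.6% of tested genes. They did not overlap for 8 of the 9 in the second, with HFD + EC359 above HFD, as for 20.6% of tested genes. The gene outside this pattern was Kit in both. In the first comparison the separation was slight for Cpa3, whose libraries met at 3.27 CPM after rounding. It was also slight for Fcer1a and Ms4a2, with at most 8 counts in any LFD or HFD library. Ms4a2 failed the filter on low counts and is not among the tested genes of these shares.

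**Figure D1:**
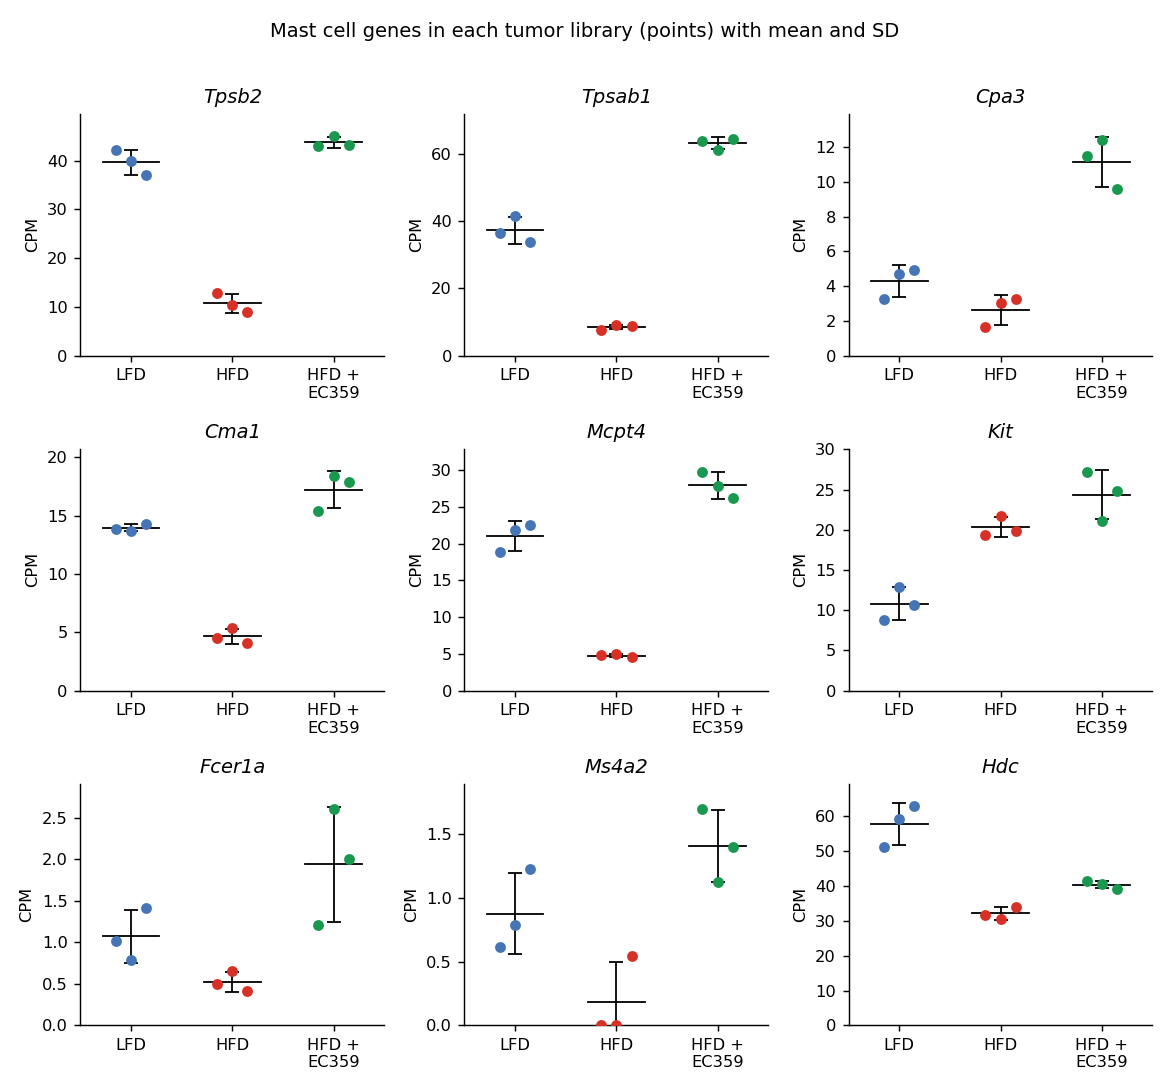
Level in CPM (vertical axis) of each of the 9 mast cell genes in the 3 libraries of each group (points), with the mean (line) and SD (bar). Tpsb2, Tpsab1, Cma1 and Mcpt4 fell to their lowest level in HFD, Kit was lowest in LFD, and Ms4a2 was at 0 in 2 HFD libraries.

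The tryptases, trypsin-like proteases of the granule, were called in both of the first comparisons. Tpsb2, which encodes mast cell protease 6, stood at 42.1, 39.9 and 37.0 CPM in LFD, at 12.9, 10.3 and 9.0 CPM in HFD, and at 43.1, 45.0 and 43.2 CPM in HFD + EC359. Tpsb2 was 3.67-fold lower in HFD than in LFD (95% interval 3.15 to 4.28, log2 fold change -1.88, SE 0.113, edgeR adjusted p = 3.63e-15). It was 4.06-fold higher in HFD + EC359 than in HFD (95% interval 3.52 to 4.68, edgeR adjusted p = 1.02e-16). The difference between HFD + EC359 and LFD did not pass the test, with a fold of 1.10 (95% interval 0.981 to 1.24, edgeR adjusted p = 0.161). With each library corrected for its trend over GC content and gene length, this last log2 fold change rose from 0.14 to 0.34 (edgeR adjusted p = 0.00123).

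Tpsab1, which encodes mast cell protease 7, was measured at 36.6, 41.6 and 33.8 CPM in LFD and at 7.69, 9.04 and 8.86 CPM in HFD. In HFD + EC359 it reached 64.0, 61.2 and 64.6 CPM, above every LFD library. Tpsab1 was 4.40-fold lower in HFD than in LFD (95% interval 3.76 to 5.14, edgeR adjusted p = 2.07e-16). With EC359 it was 7.42-fold higher than in HFD (95% interval 6.47 to 8.51, log2 fold change 2.89, SE 0.101, edgeR adjusted p = 1.46e-21), the largest change of any of the 8 tested genes. Against LFD it was 1.69-fold higher in HFD + EC359 (95% interval 1.51 to 1.89, edgeR adjusted p = 1.48e-09), which is under the 2-fold threshold of a call.

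The chymases, chymotrypsin-like proteases of the granule, followed the tryptases. Cma1, which encodes mast cell protease 5, was at 13.9, 13.7 and 14.3 CPM in LFD, at 4.54, 5.37 and 4.09 CPM in HFD, and at 15.4, 18.4 and 17.9 CPM in HFD + EC359. Its fall in HFD was 2.98-fold (95% interval 2.38 to 3.72, edgeR adjusted p = 1.23e-09) and its rise with EC359 was 3.69-fold (95% interval 3.03 to 4.50, edgeR adjusted p = 3.17e-12). Mcpt4, which encodes a beta-chymase of connective tissue mast cells, was at 18.8, 21.8 and 22.6 CPM in LFD, at 4.79, 4.98 and 4.50 CPM in HFD, and at 29.8, 27.8 and 26.2 CPM in HFD + EC359. Both genes were thus lowest in HFD, with no overlap between the HFD libraries and any other. Mcpt4 was 4.44-fold lower in HFD than in LFD (95% interval 3.65 to 5.40, log2 fold change -2.15, SE 0.145, edgeR adjusted p = 5.67e-14). It was 5.84-fold higher in HFD + EC359 than in HFD (95% interval 4.90 to 6.95, edgeR adjusted p = 4.72e-17). Against LFD the HFD + EC359 levels were 1.24-fold higher for Cma1 (95% interval 1.05 to 1.47, edgeR adjusted p = 0.0323) and 1.32-fold higher for Mcpt4 (95% interval 1.15 to 1.51, edgeR adjusted p = 0.00112). Over the alternative settings, the adjusted p of Cma1 in this comparison ran from 0.0163 to 0.233.

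Cpa3, the carboxypeptidase that trims peptides after the other granule proteases, was at 3.27, 4.71 and 4.93 CPM in LFD, at 1.64, 3.01 and 3.27 CPM in HFD, and at 11.5, 12.4 and 9.60 CPM in HFD + EC359. The lowest LFD and the highest HFD library met at 3.27 CPM, while all HFD + EC359 libraries lay above both groups. Cpa3 was 4.22-fold higher in HFD + EC359 than in HFD (95% interval 3.19 to 5.59, edgeR adjusted p = 1.20e-09) and 2.54-fold higher than in LFD (95% interval 1.94 to 3.34, edgeR adjusted p = 7.64e-07). It was 1.66-fold lower in HFD than in LFD (95% interval 1.14 to 2.41), with an edgeR adjusted p of 0.0253 that missed the call. The adjusted p of this fall ran up to 0.162 when HFD replicate 1 was left out, and it was 0.0810 without LFD replicate 2 and 0.0990 without LFD replicate 3. The exons of Cpa3 hold 41.4% GC, and after the same correction for GC content and length the fall in HFD became a call (log2 fold change -1.04, edgeR adjusted p = 0.00186), whereas the rise over LFD dropped to a log2 fold change of 0.87 and was no longer called.

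Hdc, which makes histamine from histidine, was at 51.1, 59.2 and 62.9 CPM in LFD, at 31.8, 30.4 and 34.1 CPM in HFD, and at 41.4, 40.6 and 39.2 CPM in HFD + EC359. The 3 groups did not overlap, with HFD lowest and LFD highest. None of the differences reached the 2-fold threshold of a call. Hdc was 1.81-fold lower in HFD than in LFD (95% interval 1.61 to 2.03, edgeR adjusted p = 3.87e-10), 1.26-fold higher in HFD + EC359 than in HFD (95% interval 1.12 to 1.41, edgeR adjusted p = 0.00277), and 1.44-fold lower in HFD + EC359 than in LFD (95% interval 1.29 to 1.60, edgeR adjusted p = 1.13e-06).

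Kit, the receptor for stem cell factor, went the other way in HFD. It was at 8.80, 12.9 and 10.6 CPM in LFD, at 19.4, 21.7 and 19.8 CPM in HFD, and at 27.2, 21.1 and 24.8 CPM in HFD + EC359. The LFD libraries lay below all others, while HFD and HFD + EC359 overlapped. Kit was 1.86-fold higher in HFD than in LFD (95% interval 1.54 to 2.24, log2 fold change 0.90, SE 0.137, edgeR adjusted p = 1.89e-06), and without LFD replicate 2 the log2 fold change was 1.05 and passed the call. In HFD + EC359 it was 2.23-fold higher than in LFD (95% interval 1.87 to 2.66, edgeR adjusted p = 3.65e-09), which was a call. Its fold of HFD + EC359 to HFD was 1.20 (95% interval 1.04 to 1.38, edgeR adjusted p = 0.0684), and the adjusted p over the alternative settings ran from 0.0229 to 0.298. KIT is also known from melanocytes and from some epithelial cells of the breast. The melanocyte markers Tyr, Tyrp1 and Dct were at 0 in all HFD libraries, and Mlana was at 0 in all 9. Pmel (means of 0.731, 0.434 and 0.585 CPM in LFD, HFD and HFD + EC359) and Sox10 (1.17, 0.348 and 0.491 CPM) had at least 1 count in each library. The 6 markers summed to at most 3.77 CPM in a library. The part of melanocytes or of breast epithelium in the level of Kit was not tested.

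The subunits of FcεRI were near the limit of detection. Fcer1a, the alpha chain that binds IgE, had 5, 5 and 8 counts in LFD (1.02, 0.785 and 1.41 CPM), 4, 5 and 3 counts in HFD (0.504, 0.655 and 0.409 CPM), and 10, 23 and 20 counts in HFD + EC359 (1.21, 2.60 and 2.0 CPM). Fcer1a was 3.64-fold higher in HFD + EC359 than in HFD (95% interval 2.01 to 6.61, edgeR adjusted p = 0.00150). This call was lost with DESeq2 (adjusted p = 0.0122) and with edgeR without HFD replicate 1 (adjusted p = 0.0113), HFD replicate 3 (adjusted p = 0.0125) or HFD + EC359 replicate 2 (adjusted p = 0.0183). Its fold of HFD to LFD was 2.0 downward (95% interval 0.942 to 4.24, edgeR adjusted p = 0.131) and that of HFD + EC359 to LFD was 1.82 upward (95% interval 1.05 to 3.17, edgeR adjusted p = 0.0674), neither of which passed the test. Ms4a2, the beta chain that amplifies the signal of the receptor, had 3, 5 and 7 counts in LFD, 0, 0 and 4 in HFD, and 14, 10 and 14 in HFD + EC359. Ms4a2 was the gene of the 9 that failed the filter on low counts. Summed over libraries and scaled for depth, its HFD + EC359 counts were 8.03 times those in HFD, with a counting interval of 2.89 to 31.0, and its HFD counts were 0.197 times those in LFD, with a counting interval of 0.0476 to 0.619. In the fit over all genes with at least 1 count, the Ms4a2 log2 fold change was 2.89 with EC359 (SE 0.670, edgeR adjusted p = 0.000201) and -2.23 in HFD against LFD (SE 0.799, edgeR adjusted p = 0.0162). A fitted fold against a group with 2 libraries at 0 depends on the prior count. The gamma chain Fcer1g, which other leukocytes share, was at 56.0 CPM in the mean of LFD, 47.3 in HFD and 55.9 in HFD + EC359, with log2 fold changes of -0.24 (edgeR adjusted p = 0.00830) and 0.24 (edgeR adjusted p = 0.00979).

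With the looser rule of an adjusted p under 0.05 at any fold, 6 of the 9 genes were lower and 1 was higher in HFD than in LFD, where 25.8% of tested genes were lower and 26.0% higher. In HFD + EC359 against HFD, 7 of the 9 were higher and 0 lower by the same edgeR fit, against 12.7% higher and 13.8% lower. At an unadjusted p under 0.05, 8 were higher and 0 lower by edgeR. The share of all tested genes at an unadjusted p was not taken, here or for the lists below. DESeq2 called 5 of the 9 genes higher and 0 lower in that comparison, where it called 388 of 13366 tested genes, 60.1% of them higher. In HFD + EC359 against LFD, 5 of the 9 were higher and 1 was lower, against 29.2% and 29.1%. Hdc was the gene that was lower in this last comparison, and Tpsb2 and Fcer1a were those tested that did not pass. The median log2 fold change of the 8 tested genes was -1.29 in HFD against LFD, 1.95 in HFD + EC359 against HFD and 0.58 in HFD + EC359 against LFD.

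**Figure D2:**
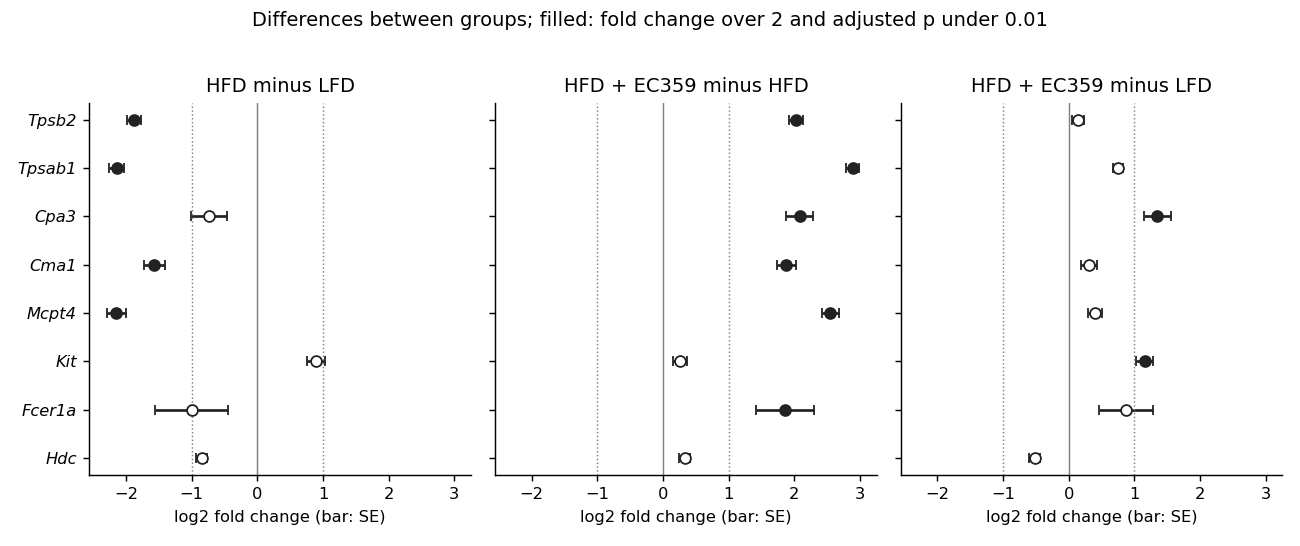
Log2 fold changes (horizontal axis) of the 8 tested mast cell genes in the 3 comparisons, with SE as bars. Filled points were called, with more than a 2-fold change (dotted lines) and p under 0.01 after adjustment: 4 genes to the left in HFD minus LFD, 6 to the right in HFD + EC359 minus HFD, and Cpa3 and Kit in HFD + EC359 minus LFD.

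The tryptase genes lie side by side on chromosome 17 (mm9), Tpsb2 at 25503278 to 25505037 on the plus strand and Tpsab1 at 25480190 to 25482507 on the minus strand, with 20770 bases between them. The chymase genes share a cluster on chromosome 14, Cma1 at 56560288 to 56563498 and Mcpt4 at 56678581 to 56681147, both on the minus strand and 115082 bases apart. The other genes were spread over the genome: Cpa3 on chromosome 3 (20115515 to 20142080), Kit on chromosome 5 (75971012 to 76052746), Fcer1a on chromosome 1 (175151402 to 175157360), Ms4a2 on chromosome 19 (11691683 to 11698133) and Hdc on chromosome 2 (126419404 to 126444401). No exon of another counted gene overlapped an exon of any of the 9 on either strand. Since near-identical copies can share reads, the exons were compared. Tpsb2 and Tpsab1 were identical at 76.0% of aligned exon bases and shared 15 of 1064 windows of 25 bases and 0 windows of 50 bases. Cma1 and Mcpt4 were identical at 70.5% and shared 0 windows of 50 bases. A fraction of a count, the mark of a read divided between genes or positions, occurred in 1 of 9 libraries for Mcpt4 and in 0 for the other 8 genes.

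Promoter sequences are shown because the tryptase and chymase genes moved together across libraries while Kit did not. None was available for the tryptases Tpsb2 and Tpsab1, so of these genes only the chymases Cma1 and Mcpt4 could be set beside Kit. Windows of 250 bases before the start site were available in RefSeq (build GRCm38.p6) for 7 of the 9 genes, and those of Cpa3, Mcpt4, Fcer1a, Cma1 and Kit are printed 5′ to 3′ on the strand of the gene. Capitals mark AGATAA or TGATAA, letters bound by GATA factors, and CACGTG or CATGTG, the E-box letters bound by MITF, on either strand. GATA2 and MITF are transcription factors known to drive mast cell genes.
Cpa3, chr3:20242182-20242431, minus strand: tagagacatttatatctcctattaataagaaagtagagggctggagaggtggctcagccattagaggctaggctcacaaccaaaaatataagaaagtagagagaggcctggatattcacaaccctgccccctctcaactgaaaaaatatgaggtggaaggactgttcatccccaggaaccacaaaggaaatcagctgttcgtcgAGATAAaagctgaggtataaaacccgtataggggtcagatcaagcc
Mcpt4, chr14:56062311-56062560, minus strand: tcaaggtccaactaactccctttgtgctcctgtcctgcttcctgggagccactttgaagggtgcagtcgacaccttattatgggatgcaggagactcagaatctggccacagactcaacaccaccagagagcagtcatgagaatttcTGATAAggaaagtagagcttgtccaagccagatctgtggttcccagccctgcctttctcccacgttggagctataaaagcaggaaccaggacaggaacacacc
Fcer1a, chr1:173227230-173227479, minus strand: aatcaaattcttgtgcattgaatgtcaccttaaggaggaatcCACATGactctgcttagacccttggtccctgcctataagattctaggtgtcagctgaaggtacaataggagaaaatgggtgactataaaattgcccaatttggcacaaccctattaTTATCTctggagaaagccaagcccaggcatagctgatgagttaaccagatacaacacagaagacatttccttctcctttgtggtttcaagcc
Cma1, chr14:55944676-55944925, minus strand: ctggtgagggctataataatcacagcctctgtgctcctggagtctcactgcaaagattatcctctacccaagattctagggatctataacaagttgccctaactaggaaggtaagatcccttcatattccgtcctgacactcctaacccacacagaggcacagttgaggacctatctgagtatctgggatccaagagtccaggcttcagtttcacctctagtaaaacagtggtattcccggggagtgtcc
Kit, chr5:75574737-75574986, plus strand: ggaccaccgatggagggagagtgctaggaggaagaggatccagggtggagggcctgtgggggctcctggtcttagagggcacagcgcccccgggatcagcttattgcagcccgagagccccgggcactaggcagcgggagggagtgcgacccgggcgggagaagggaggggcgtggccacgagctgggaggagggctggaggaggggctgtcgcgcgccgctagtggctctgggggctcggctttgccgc
AGATAA or TGATAA stood in the windows of 4 of the 7 genes, once each in Cpa3, Mcpt4 and Fcer1a and at 3 places in Ms4a2. Of all 32851 promoter windows of this length, 16.6% held either. CATGTG stood in the window of Fcer1a, as its reverse complement, and CACGTG in none of the 7, where 17.6% of all windows held either. Cma1, Kit and Hdc held no match. A match is a description of letters, and no binding was measured here.

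Compared per kilobase of exon, the order of the genes differed between the groups. In LFD, Tpsb2 led at 36.5 ± 2.36 CPM per kb (SD, n = 3), followed by Tpsab1 at 31.4 ± 3.31, Hdc at 24.3 ± 2.53, Mcpt4 at 21.3 ± 2.0 and Cma1 at 13.0 ± 0.288 CPM per kb. The libraries of Tpsb2 and Tpsab1 overlapped in this order, as did those of Hdc and Mcpt4. Cpa3 at 2.96 ± 0.620, Kit at 2.07 ± 0.395, Fcer1a at 1.05 ± 0.307 and Ms4a2 at 0.869 ± 0.317 CPM per kb ended the order, and the libraries overlapped between Cpa3 and Kit and between Fcer1a and Ms4a2. In HFD, Hdc led at 13.5 ± 0.782 CPM per kb, above Tpsb2 at 9.87 ± 1.80 and Tpsab1 at 7.16 ± 0.614 CPM per kb. Mcpt4, Cma1 and Kit followed, at 4.80 ± 0.244, 4.34 ± 0.604 and 3.92 ± 0.242 CPM per kb, and the libraries of Cma1 overlapped with those of both others. Cpa3 at 1.82 ± 0.604, Fcer1a at 0.510 ± 0.121 and Ms4a2 at 0.180 ± 0.312 CPM per kb were lowest, and the libraries of Fcer1a and Ms4a2 overlapped. In HFD + EC359, Tpsab1 led at 53.1 ± 1.55 CPM per kb, then Tpsb2 at 40.2 ± 1.01, Mcpt4 at 28.2 ± 1.85, Hdc at 17.0 ± 0.464 and Cma1 at 16.0 ± 1.49 CPM per kb. Cpa3 at 7.69 ± 0.990, Kit at 4.70 ± 0.590, Fcer1a at 1.89 ± 0.676 and Ms4a2 at 1.39 ± 0.282 CPM per kb ended the order, in which the libraries overlapped between Hdc and Cma1 and between Fcer1a and Ms4a2. Tpsab1 lay above Tpsb2 in every HFD + EC359 library and below it in every LFD and HFD library.

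Ratios between the genes within a library were taken after the values had been seen. The ratio of Tpsab1 to Tpsb2 per kilobase was 0.861 ± 0.0826 in LFD, 0.748 ± 0.182 in HFD and 1.32 ± 0.0702 in HFD + EC359 (SD, n = 3). Its HFD + EC359 libraries, at 1.36, 1.24 and 1.37, lay above all others, while HFD and LFD overlapped. The ratio of Mcpt4 to Cma1 was 1.64 ± 0.148 in LFD, 1.12 ± 0.0978 in HFD and 1.78 ± 0.284 in HFD + EC359, with HFD below both other groups. The ratio of Kit to Tpsb2 was 0.0572 ± 0.0122 in LFD, 0.407 ± 0.0782 in HFD and 0.117 ± 0.0173 in HFD + EC359, with no overlap between any groups. An exact permutation test, two-sided, gave p = 0.1 for each pair of groups that did not overlap, the smallest value that 3 against 3 libraries allow, and p = 0.138 after Benjamini-Hochberg adjustment over the 18 ratio comparisons made. This test cannot reach 0.05 with 3 libraries a group.

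**Figure D3:**
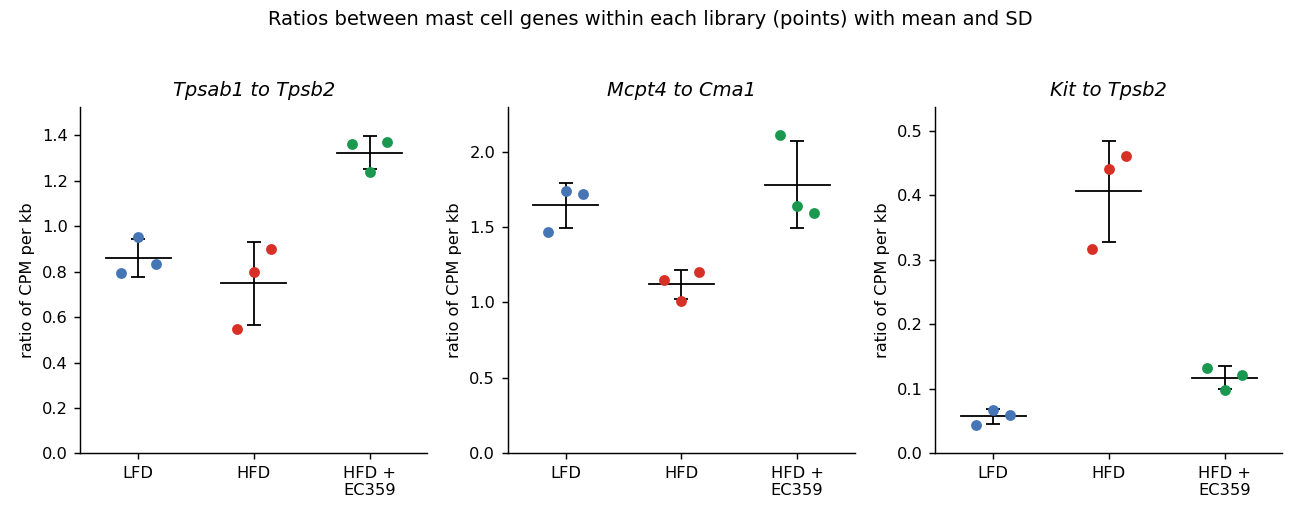
Ratio of the levels per kilobase (vertical axis) of Tpsab1 to Tpsb2, Mcpt4 to Cma1 and Kit to Tpsb2 within each library (points), with the mean (line) and SD (bar). Tpsab1 exceeded Tpsb2 in the 3 HFD + EC359 libraries, and Kit to Tpsb2 was highest in HFD.

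Other genes of mast cell pathways were read from lists chosen by role. Of the 10 other mast cell proteases and their partners, 5 could be tested, of which 2 were called lower in HFD against LFD and 3 were called higher in HFD + EC359 against HFD. The sum of the list was 122 to 141 CPM in LFD, 191 to 207 in HFD and 235 to 249 in HFD + EC359, most of it Ctsc, which encodes the activator of granule serine proteases, cathepsin C, and is used by many cells. Ctsc rose from a mean of 113 CPM in LFD to 190 in HFD and 224 in HFD + EC359, with log2 fold changes of 0.74 (edgeR adjusted p = 1.16e-13) and 0.24 (edgeR adjusted p = 0.000120). Mcpt1, a chymase of mucosal mast cells, was at 5.73, 9.58 and 5.46 CPM in LFD, at 0.631, 1.05 and 0.954 CPM in HFD and at 2.91, 1.81 and 3.40 CPM in HFD + EC359. It fell with a log2 fold change of -2.99 in HFD (SE 0.337, edgeR adjusted p = 6.30e-09), rose by 1.62 with EC359 (edgeR adjusted p = 0.00150) and remained lower than in LFD by a log2 fold change of -1.37 (edgeR adjusted p = 3.00e-05). The exons of Mcpt1 were identical to those of Mcpt4 at 85.6% of aligned bases and shared 0 windows of 50 bases with them. Mcpt2, also known from mucosal mast cells, was 3.39 ± 1.17 CPM in LFD, 0.958 ± 0.123 in HFD and 3.30 ± 0.863 in HFD + EC359 (SD, n = 3), and was called in the first comparison at -1.84 and in the second at 1.78 on the log2 scale. Serpinb1a, an inhibitor of granule serine proteases, was higher with EC359 than in HFD by 1.24 on the log2 scale (edgeR adjusted p = 1.65e-05). Mcpt9, Cma2, Tpsg1 and Ctsg stayed under 1 CPM in the mean of each group.

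Of 11 genes of histamine handling and granule storage, 6 were tested and Tph1, which makes serotonin in mast cells, was called. Tph1 had 7, 3 and 8 counts in LFD, 1, 6 and 1 in HFD, and 22, 21 and 27 in HFD + EC359. Scaled for depth, the Tph1 counts in HFD + EC359 were 7.39 times those in HFD, with a counting interval of 3.55 to 17.8 (edgeR adjusted p = 2.52e-05), and 2.43 times those in LFD, with a counting interval of 1.43 to 4.33 (edgeR adjusted p = 0.00824). Of 10 surface receptors of mast cells, 7 were tested. Mrgprb1, a receptor of the connective tissue mast cell family of Mrgpr genes, was 1.51 ± 0.258 CPM in LFD, 1.23 ± 0.351 in HFD and 4.19 ± 1.10 in HFD + EC359 (SD, n = 3), higher with EC359 than in HFD by 1.75 on the log2 scale (edgeR adjusted p = 3.82e-05). Gpr34, a lysophosphatidylserine receptor also found on macrophages, had 1, 1 and 3 counts in LFD, 10, 13 and 21 in HFD, and 23, 41 and 52 in HFD + EC359. Its HFD counts were 6.51 times those in LFD, with a counting interval of 2.59 to 21.0 (edgeR adjusted p = 0.000460), and its HFD + EC359 counts were 2.23 times those in HFD, with a counting interval of 1.56 to 3.23 (edgeR adjusted p = 0.00377).

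The signalling genes below FcεRI moved little in their median, while single genes went both ways. Of 20 genes, 19 were tested, and their median log2 fold change was -0.03 in HFD against LFD and 0.09 in HFD + EC359 against HFD. In the first comparison 2 were called lower, against 2.68% of all tested genes, and in the second 1 was called higher, against 2.08%. At an edgeR adjusted p under 0.05, 3 were higher and 7 lower in the first, against 26.0% and 25.8%. In the second, 5 were higher and 1 was lower, against 12.7% and 13.8%. Lat, a scaffold adaptor of mast cell and T cell signalling, was called lower in HFD than in LFD, by a log2 fold change of -1.06 (edgeR adjusted p = 0.00365), and its value with EC359 was 0.32 (edgeR adjusted p = 0.482). Of 18 genes of KIT and of mast cell growth factors, 13 were tested. Il33, an alarmin that acts on mast cells through the receptor ST2, was called, at 6.73 ± 1.36 CPM in LFD, 25.9 ± 3.04 in HFD and 27.2 ± 1.56 in HFD + EC359 (SD, n = 3), higher in HFD by 1.97 on the log2 scale (edgeR adjusted p = 4.55e-13). Kitl, the ligand of KIT, was picked for its role after its values had been seen. It was 94.7 CPM in the mean of LFD, 119 in HFD and 132 in HFD + EC359, with log2 fold changes of 0.32 (edgeR adjusted p = 1.55e-05) and 0.15 (edgeR adjusted p = 0.0286). Il9 was at 0 in all libraries.

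Of 10 transcription factors of mast cells, 9 were tested and 0 were called in any comparison by edgeR, and DESeq2 called 0 as well, while 5 passed an edgeR adjusted p under 0.05 in each. At an unadjusted p under 0.05 the counts were 5, 5 and 6. Gata2 and Mitf, chosen here for the promoter letters after their values had been seen, went opposite ways in HFD. Gata2 was 17.5 CPM in the mean of LFD and 10.1 in HFD (log2 fold change -0.77, edgeR adjusted p = 1.68e-05), and Mitf was 10.4 and 15.7 CPM (log2 fold change 0.59, edgeR adjusted p = 0.000992). In HFD + EC359 against HFD their log2 fold changes were 0.13 (edgeR adjusted p = 0.539) and 0.20 (edgeR adjusted p = 0.220). Of 11 genes of eicosanoid mediators, 8 were tested. Hpgds, the synthase of prostaglandin D that mast cells and some macrophages use, was 6.55 ± 1.45 CPM in LFD, 9.74 ± 1.10 in HFD and 17.1 ± 0.963 in HFD + EC359 (SD, n = 3) and was called in HFD + EC359 against LFD at 1.36 on the log2 scale (edgeR adjusted p = 3.45e-09). Cysltr1, a receptor for cysteinyl leukotrienes, was called higher in HFD than in LFD at 1.16 on the log2 scale (edgeR adjusted p = 4.33e-05), and its value in HFD + EC359 against HFD was -0.00 (edgeR adjusted p = 0.992).

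**Figure D4:**
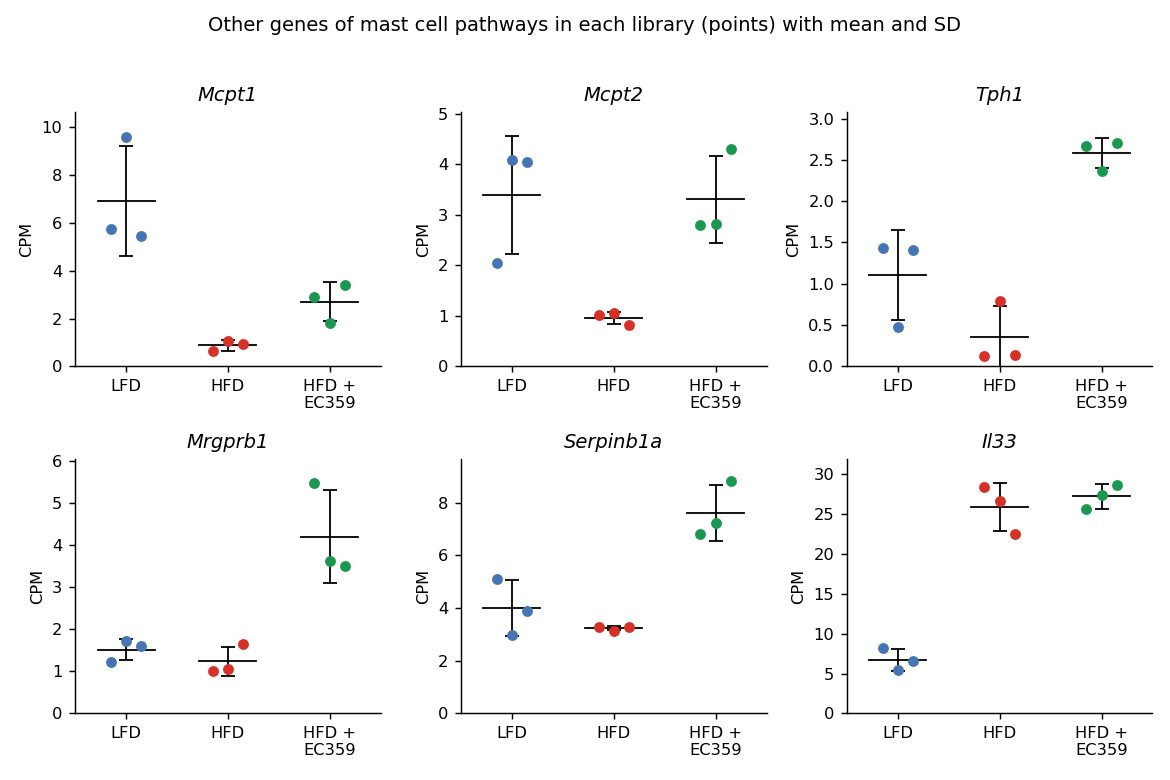
Level in CPM (vertical axis) of Mcpt1, Mcpt2, Tph1, Mrgprb1, Serpinb1a and Il33 in each library (points), with the mean (line) and SD (bar). Mcpt1 and Mcpt2 were lowest in HFD, Tph1, Mrgprb1 and Serpinb1a were highest in HFD + EC359, and Il33 was higher in both groups on the high-fat diet.

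Markers of other cells were read in the same libraries. The 7 basophil markers together were at 44.9 to 47.4 CPM in LFD, 40.5 to 44.8 in HFD and 38.7 to 41.8 in HFD + EC359. Most of this sum was the 2 tested, Itga2 (means of 27.7, 26.3 and 25.2 CPM) and Il3ra (15.6, 14.4 and 11.8 CPM). By edgeR or DESeq2, 0 of these 2 were called. In the same order of groups, Cd200r3 (1.02, 0.437 and 1.61 CPM) and Mcpt8 (0.968, 0.350 and 0.487 CPM) were lowest in HFD. Prss34 was highest there (0.111, 0.259 and 0.149 CPM). These low markers failed the filter and were not tested, and Cd200r3 was also on the list of mast cell surface receptors above. At an unadjusted p under 0.05 the counts of basophil markers were 0, 1 and 1 in the 3 comparisons. The 5 leukocyte markers summed to 353 to 363 CPM in LFD, 384 to 406 in HFD and 443 to 461 in HFD + EC359, a sum that was higher in HFD than in LFD, where the proteases were lower, and higher again with EC359, as the proteases were. At an edgeR adjusted p under 0.05, 4 of the 5 were higher in each of these comparisons, and Coro1a was lower in HFD against LFD (127 to 90.0 CPM in the means, log2 fold change -0.50, edgeR adjusted p = 1.36e-09). Cd52, a surface antigen of lymphocytes and other leukocytes, was called higher in HFD than in LFD at 1.85 on the log2 scale, and Cd53 in HFD + EC359 against LFD at 1.33. Hdc is also used by immature neutrophils, and of 12 markers of these cells 8 were tested and 3 were called higher in HFD than in LFD. Their sum was 108 to 130 CPM in LFD, 152 to 167 in HFD and 175 to 183 in HFD + EC359, and their part in the level of Hdc was not tested. Among those called were Ngp at 2.17 and Ltf at 1.92 on the log2 scale. Ltf was called lower with EC359 than in HFD at -1.39, while S100a8 was called in HFD + EC359 against LFD at 1.63. The 8 macrophage markers summed to 1597.1 to 1626.3 CPM in LFD, 1446.9 to 1471.0 in HFD and 1774.6 to 1797.0 in HFD + EC359, lowest in HFD as the proteases were. At an edgeR adjusted p under 0.05, 4 were higher and 2 lower in HFD against LFD, and 6 were higher and 1 lower in HFD + EC359 against HFD. Mrc1, the mannose receptor had log2 fold changes of -0.36 (edgeR adjusted p = 4.68e-10) and 0.44 (edgeR adjusted p = 6.65e-12). Lyve1, also known from lymphatic vessels, was the macrophage marker called, at 3.23 in HFD against LFD and -1.02 in HFD + EC359 against HFD. Of 7 dendritic cell markers, 3 were tested and 0 were called by edgeR or DESeq2, and 2, 1 and 2 passed an unadjusted p under 0.05.

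Marker lists of epithelium, skin, connective tissue and fat also differed between the groups. The 6 skin epidermis markers measured, of 7 listed, summed to 193 to 203 CPM in LFD, 115 to 123 in HFD and 171 to 177 in HFD + EC359, with 0 markers at 0. Of these, 3 were called lower in HFD against LFD and 4 higher in HFD + EC359 against HFD, led by Krtdap (-1.24 and 2.40), Dsg1a (-1.96 and 1.66) and Lor (-1.84 and 1.56 on the log2 scale), genes of keratinocyte differentiation and adhesion. The 9 markers of mammary and tumor epithelium summed to 2062.1 to 2229.6 CPM in LFD, 777 to 788 in HFD and 1146.8 to 1172.0 in HFD + EC359, with 5 called lower in the first comparison and 4 called higher in the second. Elf5 was at 0 in HFD. Krt14 and Krt5, keratins of basal cells in mammary gland and in skin, went from 762 to 40.6 to 237 CPM and from 253 to 30.6 to 143 CPM in the group means, and Epcam from 7.39 to 1.37 to 5.06 CPM. The sum of the 8 fibroblast and connective tissue markers, most of it collagen, moved the other way, at 7495.5 to 8957.8 CPM in LFD, 13219.5 to 13969.8 in HFD and 3669.5 to 3773.7 in HFD + EC359. Col1a1 and Col1a2, the chains of type I collagen, were lower with EC359 than in HFD by log2 fold changes of -2.09 and -2.06, and Clec3b was higher in HFD than in LFD by 3.13. In HFD + EC359 against HFD, 6 of the 8 were called lower, Pdgfra was higher by 0.34 (edgeR adjusted p = 1.43e-09) and Dcn had a log2 fold change of -0.12 (edgeR adjusted p = 0.221). Of 8 adipocyte markers, 4 were tested, and Fabp4 and Cfd were called higher in HFD at 1.66 and 1.16. The part of these tissues in the change of the mast cell genes was not tested.

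**Figure D5:**
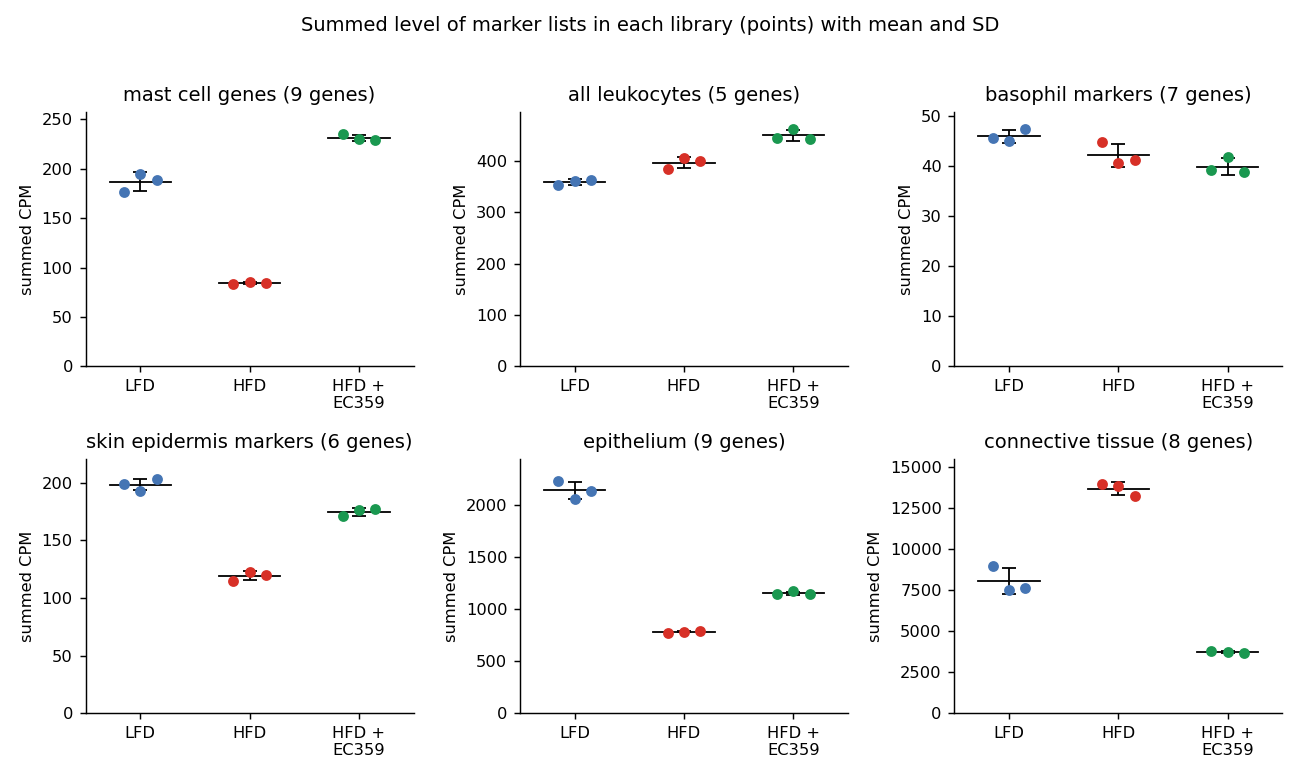
Summed level in CPM (vertical axis) of the mast cell genes and of 5 marker lists in each library (points), with the mean (line) and SD (bar). The skin epidermis and epithelium markers, like the mast cell genes, were lowest in HFD, the leukocyte sum was lowest in LFD, and the connective tissue sum was highest in HFD.

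The genes most like the mast cell genes were ranked by Pearson's r of log2 CPM with the mean of the 8 tested genes over the 9 libraries. The first 5 of 13358 genes were Myh1 (r = 0.995), a myosin heavy chain of fast skeletal muscle, BC100530 (r = 0.991), Padi4 (r = 0.990), a peptidylarginine deiminase of neutrophils, Lpin1 (r = 0.989), a phosphatidate phosphatase, and Ppl (r = 0.984), the desmosome-linked plakin periplakin. In all, 33 genes had r over 0.95. The 9 points share their libraries and fall into 3 groups, so r follows the group means. Myh1 was 27.9 ± 3.50 CPM in LFD, 12.7 ± 0.835 in HFD and 36.7 ± 1.26 in HFD + EC359 (SD, n = 3). A list of 8 skeletal muscle markers was therefore read, added after Myh1 had been seen. Its sum was 315 to 371 CPM in LFD, 360 to 382 in HFD and 426 to 445 in HFD + EC359. Most of it was Ttn (222, 239 and 321 CPM in the means), so the sum says little of the other markers. Myh1 (-1.14 and 1.53 on the log2 scale) and Myh2 (-0.82 and 1.40) were lower in HFD and higher with EC359. Myh4 (0.53 and -1.47) and Ckm (1.13 and -1.33) went the other way. Among the mast cell genes themselves, r was 0.96 for Tpsb2 with Tpsab1, 0.98 for Tpsb2 with Mcpt4 and 0.99 for Cma1 with Mcpt4. It was lower outside the tryptases and chymases, at 0.71 for Tpsb2 with Cpa3 and 0.60 for Tpsab1 with Hdc. Fcer1a with Hdc was at 0.35 and Cpa3 with Hdc at 0.24. For Kit, r was -0.25 with Tpsb2, -0.73 with Hdc and 0.38 with Cpa3.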

How the data were processed

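RNA-seq of 4T1 tumors gave 9 libraries, 3 in each of the LFD, HFD and HFD + EC359 groups, named by the labels. The deposited values are expected counts of reads per gene, which the authors made with featureCounts (version 1.5.0-p1 in the file header) on mm9, with reads that fit several features divided into fractions and no normalization. The submitters' processing notes name HISAT2 2.1.0, whereas the methods of the study name TopHat2 and HTSeq. The effect of this on the counts was not tested. Counts were rounded to whole numbers, and no per-sample column was left unused.

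Genes were filtered with filterByExpr by group, which kept 13366 of 22609 genes, and scaled with TMM factors. In R 4.3.3, edgeR 4.0.16 (limma 3.58.1) fitted a quasi-likelihood model of the 3 groups to all 9 libraries, and p-values were adjusted by Benjamini-Hochberg over those genes. A gene was called at a fold change over 2 with an adjusted p under 0.01, the threshold in the study's methods, and an adjusted p under 0.05 at any fold was the second rule. The edgeR SE was derived from the log2 fold change and the F statistic of its test. Intervals of fold changes are at 95% by a normal approximation with this SE. The fit was tested on simulated data. The study used DESeq, and DESeq2 1.42.0 was an alternative here, as were RLE factors, other filters, thinning to the smallest library, a GC and length correction, a replicate block and leaving out each library. The counting intervals of Fcer1a, Ms4a2, Tph1 and Gpr34 come from an exact conditional binomial test at 95% and cover counting error alone, since reads carried no molecular identifiers. CPM per kb used the exon length of the deposited files.

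The genes and the lists were chosen with earlier results of these data known. All 9 genes are named, from the other lists at most 3 called genes each with the largest absolute log2 fold change, and the 5 genes with the highest r. Ctsc, Mrc1, Coro1a, Pdgfra, Dcn, Fcer1g, Krt8 and Krt18 fall outside this rule and were named after their values were seen. Ly6g and Flg were not analysed here. A further gene that the rule names is not reported here. Library pairs of a group differed by more than sampling noise, with a chi-square of 1.36 to 3.10 per gene. The pairs with LFD replicate 1 were at 3.10 and 2.54, and all other pairs were at 1.36 to 1.57. Whether this is the spread between separate animals was not tested. Deviations from the group means of libraries with the same number correlated at -0.03 to 0.02, and those with different numbers at -0.02 to 0.03. This gave no sign that the numbers pair the libraries and cannot exclude it. Positions are those given with the deposited counts (mm9), and promoter windows are from RefSeq (GRCm38.p6), which were matched by symbol and not converted between builds.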

Additional observations from a re-analysis of the deposited data

How the results depend on the processing

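None of the log2 fold changes of the tested mast cell genes changed sign under any alternative. The count of called genes moved with the rule. With an adjusted p under 0.05 at any fold it was 7 in place of 4 in HFD against LFD and 6 in place of 2 in HFD + EC359 against LFD. After a correction for GC content and length, it was 1 in place of 2 in HFD + EC359 against LFD, because Cpa3 fell under the 2-fold threshold. With the replicate number as a block, the counts were 4, 6 and 2 and no call changed. Leaving out each library in turn gave 4 to 5, 5 to 7 and 2 called genes in the 3 comparisons. Limiting the fit to genes that reached 10 counts in all libraries gave 356, 213 and 418 calls over all genes in place of 761, 462 and 680. With that limit, 47.4% of the calls in HFD + EC359 against HFD were higher, in place of 60.2%. The adjusted p under 0.05 alone gave 6926, 3545 and 7786. After the GC and length correction, 411 genes were called in HFD + EC359 against LFD. Fcer1a and Ms4a2 were limited by depth, and Ms4a2 was called with EC359 in the fit over all genes with at least 1 count. In the fits that left out 1 library under the usual filter, its rise with EC359 was not called without HFD replicate 1 (adjusted p = 0.0155, edgeR) or HFD replicate 2 (adjusted p = 0.0137, edgeR), and without HFD replicate 3 it was also called lower in HFD than in LFD (adjusted p = 0.00109, edgeR).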
